A study of Mus musculus with 11 samples.

Results

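In mouse embryonic stem cells, 4 genomic regions were open in both cell lines on a DBA/2J (D2) genetic background and low in both lines on a C57BL/6J (B6) background. They came from a table of 248336 regions of accessible chromatin and lay at chr1:24611448-24616261, chr4:88801799-88801942, chr15:79973902-79974209 and chr18:42975763-42976101 of the mm10 mouse genome. The members were chosen by their measured levels: a region was a member when its mean level reached 2 CPM (the region's count per 1000000 counts of its library) in both D2-background lines, and when both B6-background means were at most 1/8 of the lower of these means. Chromosomes 11, 13, X and Y were not searched, which left 213345 regions, and 81306 of those reached 2 CPM in both D2-background lines. Every one of the 4 lines was used to choose the members, so the gap between the backgrounds is given below as a description and without a test. The 4 members were 0.00492% of the regions that reached the minimum. None of the regions on chromosomes 11, 13, X or Y passed the same limits.

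The study used ATAC-seq, in which a transposase cuts accessible DNA and inserts sequencing adapters, on 11 libraries from 4 lines of embryonic stem cells. The line B6 5-1 of strain C57BL/6J gave 3 libraries, and 3 came from the line D2 5-5 of strain DBA/2J. Another 2 came from the line QJ 6-1 of the congenic strain B6.D2-(rs30079041-rs51756099)/Bakr, called B6-13D2, with a D2 interval on an otherwise B6 genome. The last 3 came from the line XE 2-4, called D2-13B6, with a B6 interval on an otherwise D2 genome, whose strain is written D2.B6-(rs29224292-rs13469455)/Bakr in the sample labels but with rs51756099 as its end in the series text. Each genotype was thus 1 cell line, and the libraries of a line were technical replicates, so groups compare 2 lines with each other and a p-value measures only the spread between technical libraries. All lines grew in serum with LIF, 1 µM of the MEK inhibitor PD0325901 and 3 µM of the GSK3 inhibitor CHIR99021, and each library was made from 100000 cells and read at 150 bases.

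Copies of mitochondrial DNA inserted in nuclear chromosomes are pseudogenes that keep the order of the mitochondrial genes, and short reads from a young copy and from the mitochondrion can be hard to place. Type I interferon genes lie in 1 cluster on mouse chromosome 4 that grew by tandem duplication, so its members also share long stretches of sequence. CBX7 is a chromodomain subunit of Polycomb repressive complex 1, which binds trimethylated lysine 27 of histone H3, and is the main CBX protein of mouse embryonic stem cells.

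The sequences below, on the plus strand of the GRCm38.p6 reference and so of C57BL/6J, are shown because they bear on where reads of each region can be placed; D2 sequence was not used here. The first pair compares the chromosome 4 region with its nearest copy, chr4:88804734-88804877. Capitals in the first line mark the 6 positions at which at least 1 of 13 ungapped copies in the cluster differs, and in the second line the positions at which that copy differs from the member.
chromosome 4 region: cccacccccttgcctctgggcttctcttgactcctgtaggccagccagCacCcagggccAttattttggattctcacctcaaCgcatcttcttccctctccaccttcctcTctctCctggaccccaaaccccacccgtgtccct
its nearest copy: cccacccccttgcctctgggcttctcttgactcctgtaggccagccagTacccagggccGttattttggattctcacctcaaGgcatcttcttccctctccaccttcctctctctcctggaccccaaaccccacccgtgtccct
The second pair sets 101 bases of the chromosome 1 region, chr1:24613067-24613167, beside the same stretch of mitochondrial DNA, bases 9411 to 9511 read on the minus strand. The capital marks the single difference within it.
chromosome 1 region: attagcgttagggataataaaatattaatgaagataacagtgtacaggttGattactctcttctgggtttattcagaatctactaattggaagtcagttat
mitochondrial DNA: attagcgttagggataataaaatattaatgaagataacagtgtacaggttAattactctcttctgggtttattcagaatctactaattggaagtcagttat
The central 300 bases of the chromosome 15 region, chr15:79973906-79974205, follow, with capitals that mark its match to the AP-1 motif.
chromosome 15 region: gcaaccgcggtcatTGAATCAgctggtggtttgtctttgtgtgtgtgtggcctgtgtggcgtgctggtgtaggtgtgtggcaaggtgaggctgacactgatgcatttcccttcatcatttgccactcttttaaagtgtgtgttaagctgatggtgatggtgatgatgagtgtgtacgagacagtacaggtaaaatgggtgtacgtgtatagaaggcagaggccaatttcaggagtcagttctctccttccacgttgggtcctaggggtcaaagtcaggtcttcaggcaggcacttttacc

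Total counts ran from 15198496 to 43042955 per library, so that a single count was worth between 0.0232 and 0.0658 CPM. Regions at the starts of all 10 listed embryonic stem cell genes were open in every line, with summed levels of 275 to 571 CPM and the lowest sums in D2-13B6. Among these genes Klf4 went the other way, with its highest levels in D2-13B6. Of 8 listed fibroblast genes, 7 also had a region, with summed levels of 71.3 to 130 CPM. These sums were highest in D2-13B6, but Postn alone was not. All 6 listed primitive endoderm genes had a region (110 to 129 CPM), as did all 5 trophoblast genes (106 to 147 CPM). Of 6 two-cell-like genes, 3 did (0.629 to 2.00 CPM). The part of other cells in the results was not tested.

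The chromosome 1 region had the highest level of the members and the widest gap between the nearest means of the 2 backgrounds. Its level was 3.81, 2.70 and 3.61 CPM in the B6 libraries and 3.90 and 3.51 CPM in the B6-13D2 libraries. The D2-13B6 libraries stood at 127, 77.2 and 141 CPM, and the D2 libraries at 39.5, 131 and 325 CPM. Every D2-background library was thus above every B6-background library, by at least 10.1-fold. Mean levels on the D2 background were 165 ± 146 CPM for the D2 line (SD, n = 3) and 115 ± 33.6 CPM for its congenic D2-13B6 (SD, n = 3). On the B6 background they were 3.37 ± 0.593 CPM for the B6 line (SD, n = 3) and 3.70 ± 0.273 CPM for B6-13D2 (SD, n = 2), which left 31.1-fold between the nearest means of the 2 backgrounds. The 3 D2 libraries, technical replicates of 1 line, spanned 8.22-fold. Their coefficient of variation, the SD as a share of the mean, was 88.2%, and 0 of the 81306 regions at the minimum had a higher one in D2, where the median was 11.5%.

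By sequence this region matches a long stretch of mitochondrial DNA. It is 4814 bases wide and overlaps 7 unprocessed pseudogenes, Gm28439, Gm10222, Gm28438, Gm28437, Gm10925, Gm28661 and Gm29216. Of its bases, 96.7% aligned to mitochondrial bases 6390 to 11042 with 99.9% identity and 3 differences, 2 substitutions and 1 gap. That stretch runs from within COX1, a subunit of cytochrome c oxidase, through COX2, ATP8, ATP6, COX3, ND3 and ND4L into ND4, a subunit of respiratory complex I. The nearest protein-coding start, that of the collagen gene Col19a1, lay 23976 bases away. The deposited column names say that mitochondrial reads were taken out before counting, but how reads that fit both places were handled is not given in the sources used here. Whether the counts came from the nuclear copy or from the mitochondrion cannot be told apart in this table.

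The other regions with mitochondrial sequence did not have this pattern, but none matched mitochondrial DNA over as large a share as the chromosome 1 region. Words of 31 bases, sampled every 5 bases from each region, were looked up on the C57BL/6J chromosomes and in mitochondrial DNA. At least 10% of the words of 9 listed regions were in the mitochondrial sequence. In 0 of the 8 that were not members were both D2-background means above both B6-background means. In these 8 the share of such words ran from 12.6% to 70.9%, and the widths from 347 to 3451 bases. The member had 95.4% over 4814 bases. Of the remaining 9 regions with any such word, both D2-background means were above both B6-background means at 0 and below them at 5. The region chr2:22587239-22590689 holds a second copy of part of the member, 96.8% identical over 1310 aligned bases. It averaged 2.17 ± 0.247 CPM in the D2 line (SD, n = 3) and 2.11 ± 1.23 CPM in D2-13B6 libraries (SD, n = 3), against 3.41 ± 0.146 CPM for B6 libraries (SD, n = 3) and 3.00 ± 0.705 CPM for those of B6-13D2 (SD, n = 2). Over this whole region, of which the copy at 22587288-22588585 is only a part, the D2-background means were the lower ones. D2-13B6 replicate 3, at 3.46 CPM, lay within the B6 range of 3.26 to 3.55 CPM.

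**Figure D1:**
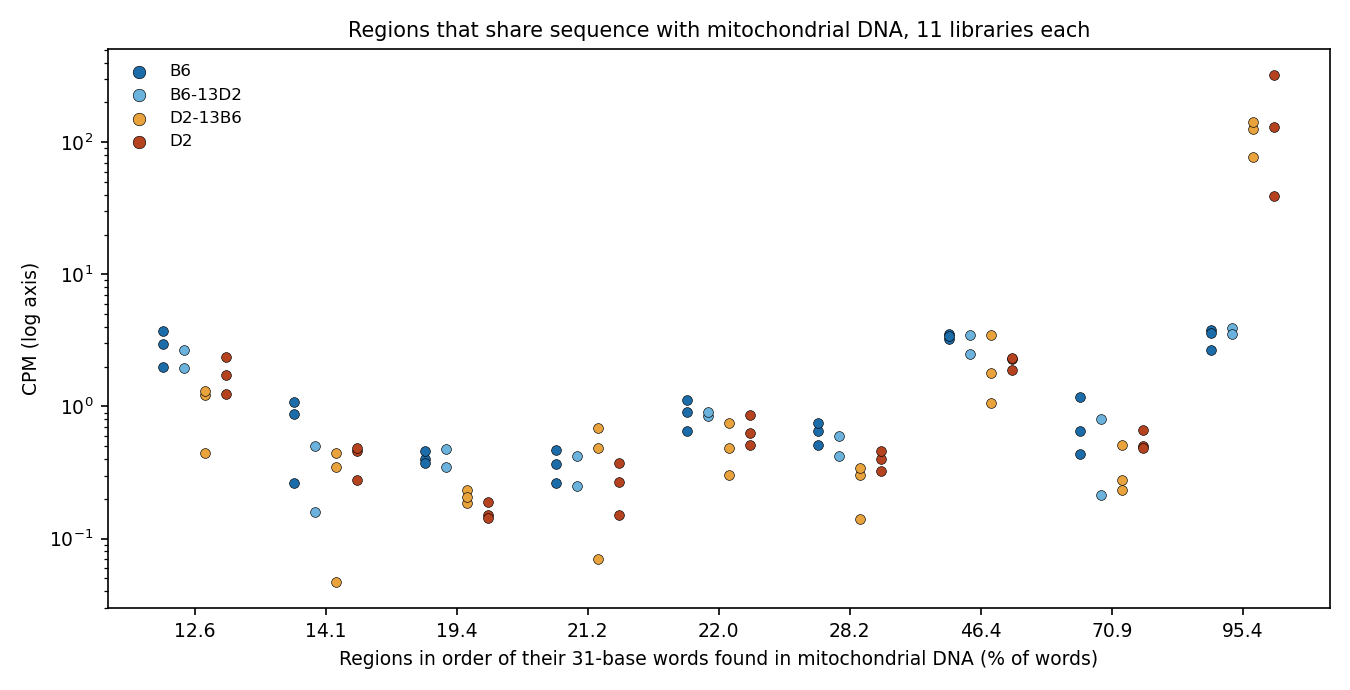
CPM (log axis) in each of 11 libraries for the 9 regions with at least 10% of their 31-base words in mitochondrial DNA, in order of that share, with points coloured by line. Only the rightmost, the chromosome 1 member, has its D2-background libraries (39.5 to 325 CPM) above its B6-background libraries (2.70 to 3.90 CPM).

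The chromosome 4 region was nearly silent on the B6 background. Its counts were 2, 0 and 5 in the B6 libraries and 1 and 0 in the B6-13D2 libraries, against 110, 55 and 82 in D2-13B6 and 148, 129 and 119 in D2. In CPM the D2-13B6 libraries stood at 2.56, 1.28 and 2.81 and the D2 libraries at 3.72, 3.49 and 3.41, while no B6-background library passed 0.234. The groups of the 2 backgrounds did not overlap, and the nearest means differed 21.6-fold.

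This region is 144 bases wide and intergenic, 1312 bases from the start of Gm13287 (ENSMUSG00000094648.1), a predicted protein-coding gene of the interferon cluster. The reference holds 14 other copies of it between 88756346 and 88804877 on chromosome 4, at 95.2% to 98.6% identity and a median spacing of 2930.5 bases. At 2 of its positions, 60 and 83 counted from its first base, all 13 ungapped copies differ from it, and its nearest copy, printed above, differs at both. Of its sampled 31-base words, 52.2% occur elsewhere on the C57BL/6J chromosomes.

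Only 2 of the other copies overlapped a region of the table, and those regions went in opposite directions. The region chr4:88781274-88781713 holds 1 of these copies. It averaged 1.25 ± 0.615 CPM for the D2 line (SD, n = 3) and 1.62 ± 0.802 CPM for D2-13B6 libraries (SD, n = 3). The B6 libraries averaged 0.198 ± 0.188 CPM (SD, n = 3) and those of B6-13D2 0.153 ± 0.0661 CPM (SD, n = 2). This region was 6.32-fold higher on the D2 background between the nearest means, but under the 2 CPM minimum. The region chr4:88759435-88759589 averaged 0.0371 CPM for D2 and 0.122 for D2-13B6 libraries, against 0.420 for B6 and 0.489 for B6-13D2 libraries. There the B6 background was the higher one, with D2 libraries near the floor at 0, 0.0541 and 0.0572 CPM. This region overlaps only the end of its copy, 88759320-88759463, so its level is mostly that of sequence outside the copy. Among the 22 other regions within 50 kb, both D2-background means were above both B6-background means at 8 and below them at 5.

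The chromosome 15 region was the only member of which no sampled 31-base word recurred on the C57BL/6J chromosomes. Its level was 0.989, 0.329 and 0.890 CPM in B6 and 0.949 and 0.691 in B6-13D2, and it was 8.06, 6.31 and 11.4 CPM in D2-13B6 and 14.8, 16.9 and 14.1 in D2. All 4 lines had counts here, from 5 to 27 per B6-background library and 271 to 624 per D2-background library. The backgrounds, whose gap was the ground for choosing the members, did not overlap. As at chromosome 4, the D2 libraries were also all above the D2-13B6 libraries. How many of all regions had their libraries split in this way was not counted. The test given below is another measure, and its main scaling differs from that of CPM. With that main scaling, 8.53% of all regions were called higher in D2 than in D2-13B6. With scaling by total counts, as in CPM, 39470 of 246840 regions were called higher in D2. The nearest means of the backgrounds differed 10.5-fold, the smallest gap among the members.

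This region is 308 bases wide, intergenic, and lies 2783 bases upstream of the start of Cbx7 (ENSMUSG00000053411.16), which is read from the minus strand. Of its 56 sampled words, 0% occur elsewhere on the C57BL/6J chromosomes. A contig of the reference set that was not part of this word count, from strain 129S7/SvEvBrd-Hprt-b-m2, carries it at 97.7% identity with 7 mismatches. It holds 1 match to the AP-1 motif TGANTCA, a motif bound by FOS and JUN proteins, at its bases 19 to 25, as do 19.3% of the 20022 regions within 10% of its width.

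The open chromatin around it did not share its pattern. Of the 24 other regions within 50 kb, both D2-background means were above both B6-background means at 3 and below them at 17, and 0 were 2-fold higher on the D2 background. The region over the Cbx7 start itself, chr15:79969790-79972038, averaged 17.6 CPM for D2 and 11.3 for D2-13B6 libraries, against 19.95 for B6 and 18.3 for B6-13D2 libraries.

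**Figure D2:**
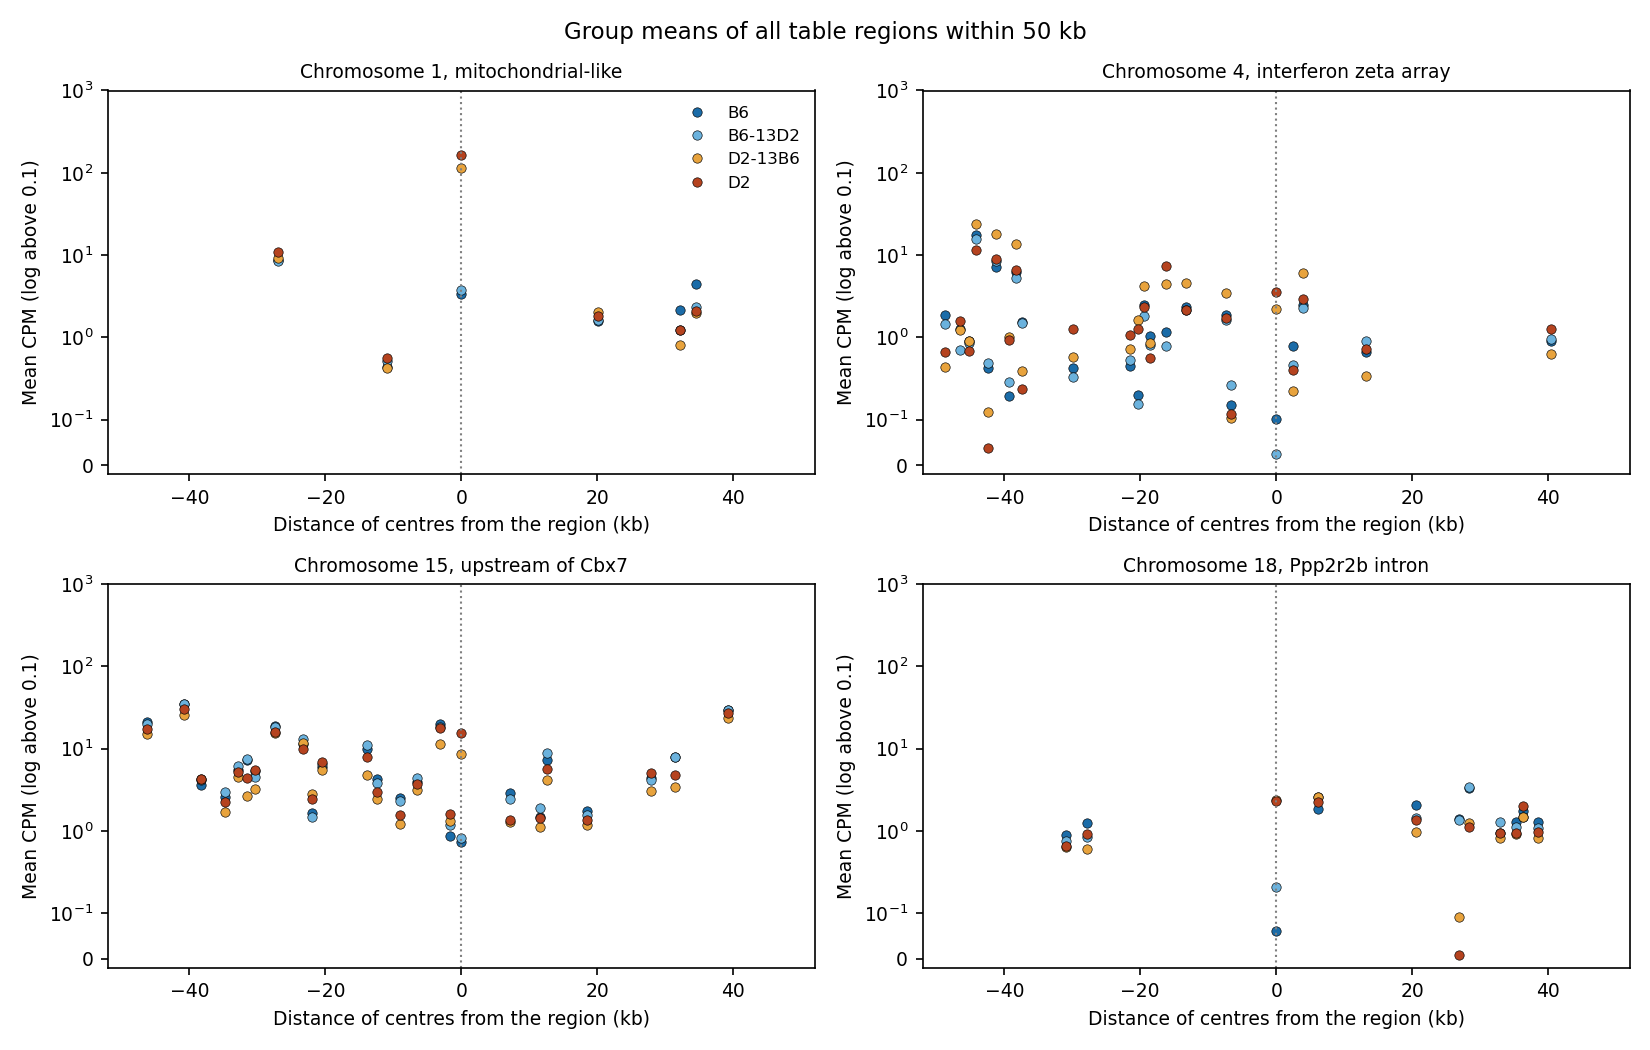
Mean CPM of each line (log axis above 0.1, linear below) for all table regions within 50 kb of each member, by distance between centres. At chromosome 15 the member is the 1 region where D2-background lines stand 10.5-fold above, while at chromosome 4 several neighbours also differ between lines.

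The chromosome 18 region lies in an intron of Ppp2r2b (ENSMUSG00000024500.19), a regulatory B subunit of protein phosphatase 2A, and in AC099605.1, and is 37531 bases from the Ppp2r2b start. Its counts were 5, 0 and 0 in B6, 5 and 3 in B6-13D2, 125, 20 and 110 in D2-13B6, and 90, 84 and 85 in D2. In CPM the D2 libraries stood close together at 2.26, 2.27 and 2.43, while D2-13B6 ranged from 0.466 to 3.77. The groups did not overlap, but the D2-13B6 library at 0.466 CPM was only 1.87 times the highest B6-background library. The coefficient of variation in D2-13B6 was 72.0%, and 0 of 81306 regions had a higher one in that line.

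This region is 339 bases of tandem repeat. Shifted by 56 bases it matched itself at 87.3% of positions, 79.9% of it was soft-masked as repeat, and 90.3% of its 31-base words occurred more than once on those chromosomes. Of the 10 other regions within 50 kb, 0 had both D2-background means above both B6-background means and 7 had both below.

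**Figure D3:**
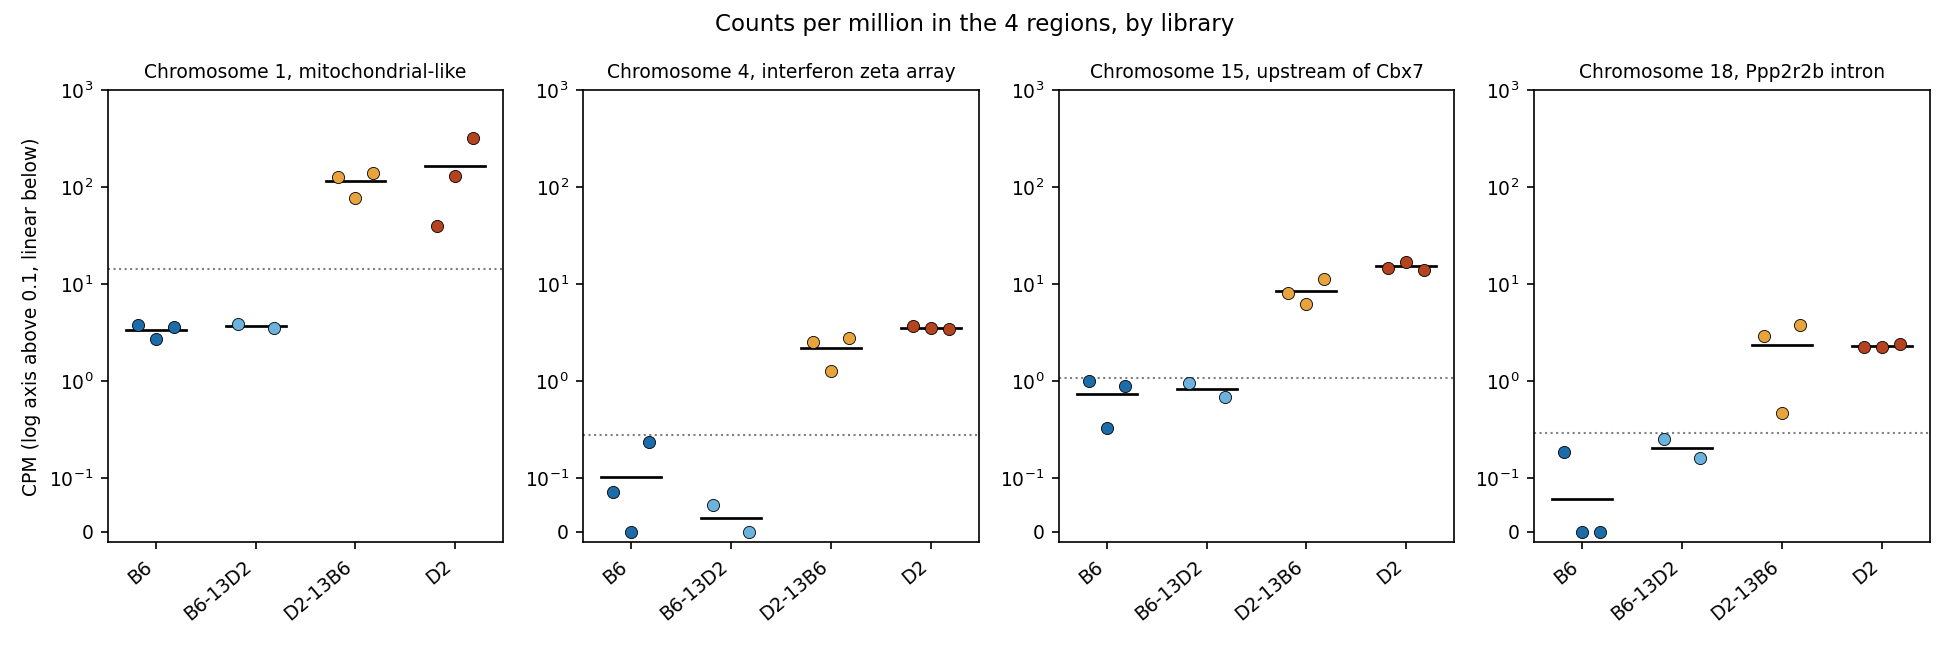
CPM of the 4 members in each library (points; log axis above 0.1, linear below), with line means as bars and 1/8 of the lower D2-background mean as a dotted line. B6-background libraries lie under the dotted line in every panel, and the chromosome 1 region spreads from 39.5 to 325 CPM among D2 libraries.

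Repeated sequence was frequent among the members. In 3 of the 4, at least 50% of the sampled 31-base words occurred more than once on the C57BL/6J chromosomes and mitochondrial DNA together. The same held for 1.45% of the 81306 regions at the minimum and 7.94% of all regions searched. The chromosome 4 region was just past that limit. At 80% of the words the count was 2 of 4, against 0.293% of the regions at the minimum. Both counts include the chromosome 1 region, with 95.4% of its words found in mitochondrial DNA. Its repeats on the chromosomes alone were not counted. Soft-masked sequence covered at least 50% of 1 member, against 5.48% of the regions at the minimum. Within 1000 bases of an annotated start lay 1 of 4 members, at a pseudogene, against 27.3% of those regions, and within 5000 bases lay 3 of 4, against 47.4%. No member had another within 200 kb. Of 8 motifs searched on both strands, AP-1 matched 2 members and SOX (ACAATGG) matched the chromosome 1 region. Of 410 regions about as wide as the chromosome 1 region, 70.2% held an AP-1 match and 43.7% a SOX match. In the central 300 bases AP-1 matched 1 member, against 13.6% of regions, and SOX matched 0, against 6.04%. For the octamer ATGCAAAT, ESRRB (CAAGGTCA), KLF (GGGNGTGGC), ETS (CCGGAAGT), CRE (TGACGTCA) and CTCF consensus motifs 0 members matched.

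The reverse pattern was more frequent. With B6 and B6-13D2 as the open lines and the same limits, 141 of 92900 regions, 0.152%, passed. At a 2-fold limit the counts were 4061 regions (4.99%) open on the D2 background and 2755 (2.97%) open on the B6 background, but at 4-fold they were 7 and 462. Among regions at 2 CPM or more in both D2-background lines, no region lay between 5.85-fold and 10.5-fold in the D2 direction. Just outside the limit were chr6:114565435-114565609 at 5.85-fold, chr2:50686842-50688204 at 5.47-fold and chr1:171540569-171541084 at 4.54-fold, and just inside were the chromosome 15 region at 10.5-fold and the chromosome 18 region at 11.3-fold.

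**Figure D4:**
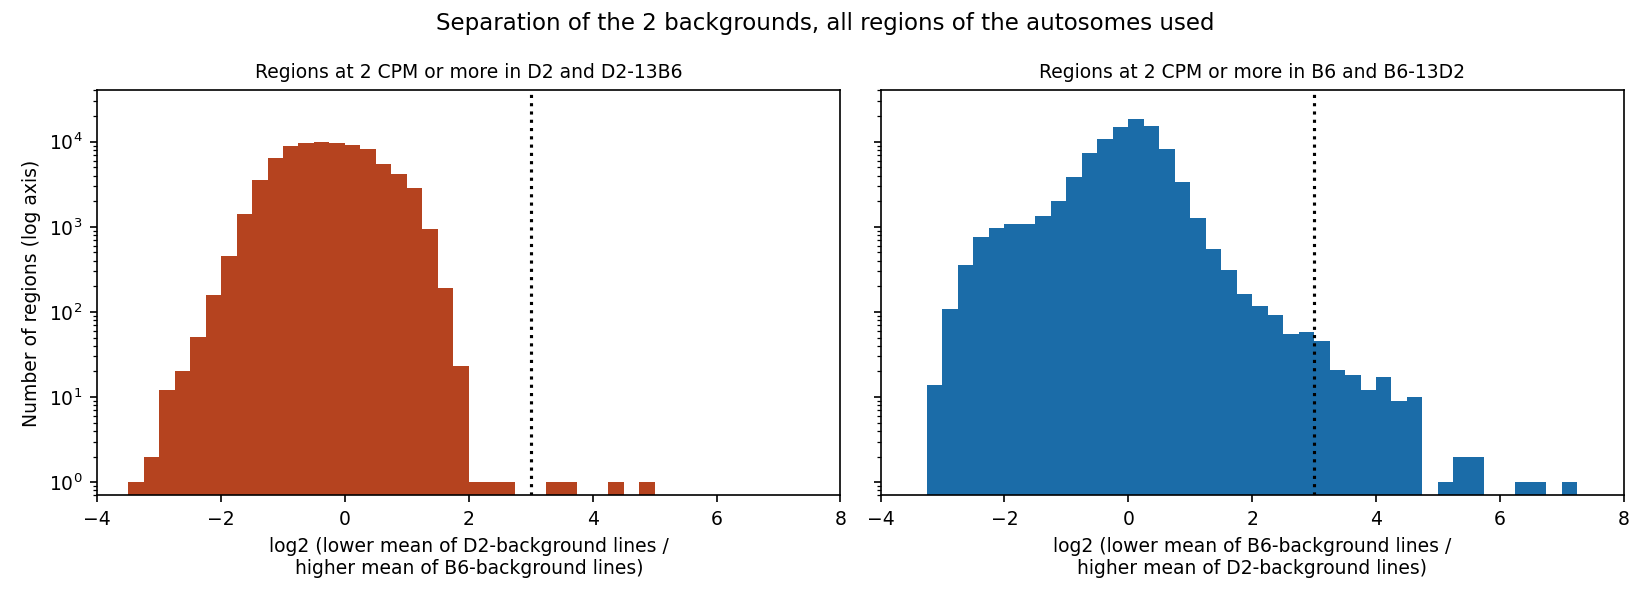
Number of regions (log axis) by log2 of the lower mean of the open background over the higher mean of the other, for regions at 2 CPM or more in both D2-background lines (left) and both B6-background lines (right); the dotted line is the 8-fold limit. On the left 4 regions lie beyond it, and on the right 141.

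The rule used the levels of all 4 lines but not which line of a background was higher. The contrasts within a background were therefore fitted, and the members' counts are not independent of the levels that chose them. The fits used edgeR's quasi-likelihood test over 246840 regions with Benjamini-Hochberg adjustment. Between D2 and D2-13B6, which differ by the exchanged interval and by line, 1 of 4 members was called, where 23.7% of all regions were. The chromosome 15 region was higher in D2 by 0.69 ± 0.17 on the log2 scale (SE, edgeR adjusted p = 0.0014278), and 8.53% of all regions were called in that direction. The chromosome 4 region had an estimate of 0.54 ± 0.24 (SE, edgeR adjusted p = 0.0926764), and scaling by total counts in place of TMM brought it past the threshold at an edgeR adjusted p of 0.0420135.

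For the chromosome 1 region the estimate was 0.37 ± 0.62 (SE, edgeR adjusted p = 0.737092). It depended on single D2 libraries: without D2 replicate 1 it was 0.83 (edgeR adjusted p = 0.00465825), and without D2 replicate 3 it was -0.59. The chromosome 18 region had an estimate of -0.12 ± 0.30 (SE, edgeR adjusted p = 0.827165). D2-13B6 replicate 2 was the lowest library of its line at 4 of 4 members, and at 33.9% of the 81306 regions at the minimum. It was also the lowest at 61.5% of the other regions of these autosomes, at 49.0% of regions with at least 50% repeated words and at all 9 regions with at least 10% mitochondrial words. In the fit without this library the estimate was -0.58 at chromosome 18 (edgeR adjusted p = 0.115181) and 0.33 at chromosome 4 (edgeR adjusted p = 0.417061). It was 0.59 at chromosome 15 (edgeR adjusted p = 0.00564343) and 0.22 at chromosome 1 (edgeR adjusted p = 0.894386). Why this library was low was not tested.

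Between B6-13D2 and B6, 0 of 4 members were called by edgeR, where 0.474% of all regions were, and 0 of 4 had an unadjusted p under 0.05 by edgeR. DESeq2 also called 0. The estimates were 0.12 ± 0.90 for the chromosome 1 region, -1.91 ± 1.25 for chromosome 4, 0.07 ± 0.37 for chromosome 15 and 1.36 ± 0.99 for chromosome 18 (log2, SE). The chromosome 4 and 18 regions had 0 to 5 counts per library in these lines and were chosen to be low in both. Leaving out 1 library moved their estimates from -4.66 (without B6-13D2 replicate 1) to -0.75 (without B6 replicate 3) at chromosome 4. At chromosome 18 they ran from 0.82 (without B6 replicate 3) to 5.51 (without B6 replicate 1). There the unadjusted edgeR p fell under 0.05, with an edgeR adjusted p of 0.407573. A test of whether the 2 contrasts differed from each other called 0 of 4 members, where it called 6.54% of all regions; the lowest edgeR adjusted p was 0.256082, at chromosome 4.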

How the data were processed

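ATAC-seq counts of 11 libraries were used as the authors deposited them, as whole-number counts per region, not normalized. Per the file headers, duplicate and mitochondrial reads had been removed. Per the submitters' processing notes the tools included Trimmomatic 0.39, BWA 0.7.5, Picard 2.0.1, MACS 1.4.2, bedtools 2.9.2 and edgeR 3.34.1, and the build was mm10; their settings, any shift of cut sites and the handling of reads with several placements are not given in the sources used here. Coordinates are printed as listed and may be off by 1 base at the start.

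CPM used column totals. The 4 members, all named in the text with the 3 regions nearest the limit, and the lists and tests were chosen with earlier results of these data known. Contrasts were fitted over all 4 lines with edgeR 4.0.16 (R 4.3.3; TMM scaling, filterByExpr, adjusted p under 0.05), with DESeq2 1.42.0 as an alternative, and the script was tested on simulated data. Sequence came from GRCm38.p6 (samtools 1.23.1), copies from BLAST 2.17.0 at 90% identity or more, and genes from GENCODE. No pair of libraries was a copy of another. Alternatives varied the limits, the scaling, the filter, the tool, the block and each library.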

Additional observations from a re-analysis of the deposited data

How the results depend on the processing

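The number of members was 7 at a limit of 1/4, 2 at 1/16, 2 at a minimum of 4 CPM and 2 when every library had to pass, and from 2 to 4 when a library was left out: without D2-13B6 replicate 3 the chromosome 4 and 18 regions fell under 2 CPM. Between D2 and D2-13B6, called members numbered 0 with a minimum fold of 1.5, 2 with total counts, and from 1 to 2 with a library left out. Scaling moved the split of all calls in that contrast: 35.9% were higher in D2 with TMM, 57.4% with total counts and 26.2% with RLE, and the median log2 estimate was 0.04 with TMM and 0.21 with total counts. Replicate numbers did not pair the libraries (correlations of same-numbered deviations from -0.0378 to 0.0575). With the replicate number as a block 1 member was called between D2 and D2-13B6, and the chromosome 18 estimate was 0.085 in place of -0.12. Leaving out a library gave estimates from -0.59 to 0.83 at chromosome 1 and from -0.58 to 0.26 at chromosome 18. The causes were not tested. Members called between B6-13D2 and B6 were 0 under every alternative run, where the fit of only those 2 lines tested 2 members. Low counts on the B6 background limit the folds at chromosomes 4 and 18.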

Other observations

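Near the chromosome 18 member, 26.9 kb from it between centres, the region chr18:43002669-43002966 had the opposite pattern. Its mean level was 1.39 CPM for B6 and 1.35 CPM for B6-13D2 libraries, against 0.0922 CPM for D2-13B6 and 0.00901 CPM for D2 libraries. It was chosen after its values were seen, and its means on the B6 background were under the 2 CPM minimum of the reverse rule.

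Regions of repeated sequence and other regions were past the limits at different rates, given here without a test because the members were chosen by the same values. Matches in mitochondrial DNA counted as repeats here, as for most words of the chromosome 1 region. Of the regions at 2 CPM or more in both D2-background lines, 1178 had at least 50% repeated 31-base words. Of these, 3 were past 8-fold (0.255%) and 32 past 2-fold (2.72%). Of the 80128 others, 1 was past 8-fold (0.00125%) and 4029 past 2-fold (5.03%).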
